A study of Homo sapiens with 4 samples.

Results

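The genes described here are 30 components of homologous recombination and the Fanconi anaemia pathway. They were chosen by symbol from a fixed list. That list and the comparison lists below were drawn up with earlier results of these data known. All 30 were found among the 48162 genes of the deposited table. Where a symbol stood on more than 1 row, as RAD51D did, the row with the higher mean was used. RNA came from MDA-MB-231, an established human line of triple-negative breast cancer grown in DMEM with 10% FBS. It was exposed for 24 h either to vehicle (2 libraries) or to 10 µM MGH-CP1 (2 libraries), a compound that the series title calls an inhibitor of TEAD palmitoylation; TEAD proteins carry YAP and TAZ to DNA. No other treatment, allele or cell line entered the comparison, and the labels give only this 1 line. Penicillin-streptomycin was in all cultures. Whether replicates were grown apart is not stated in the labels, and the p-values therefore reflect library-to-library spread, which could be technical.

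Homologous recombination repairs a chromosome broken across both strands by copying the intact sister chromatid. The broken ends are first resected by the MRE11, RAD50 and NBN complex with CtIP (gene RBBP8) and by the nuclease EXO1. BRCA1 with BARD1, PALB2 and BRCA2 then prepare the single strand to invade the sister, helped by XRCC2, XRCC3 and RAD51B to RAD51D, and the RAD54 proteins drive strand exchange. BLM with RMI1 and RMI2 unties the joined molecules. The Fanconi core complex senses DNA cross-links at stalled forks and attaches ubiquitin to FANCD2 and FANCI, which hand the lesion to nucleases and recombination. These genes matter in breast tissue because inherited loss of BRCA1, BRCA2 or PALB2 predisposes to breast cancer, and many of the transcripts are most abundant in cells that are replicating their DNA.

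Nearly the whole group was lower after MGH-CP1. Of the 30 genes, 27 fell at an adjusted p under 0.05 and none rose (limma; none rose at an unadjusted p under 0.05 either, and voom also gave 27 and 0). Across all 11790 tested genes the same fit called 25.1% lower and 20.0% higher, so the 90.0% of these genes called lower stands beside a background of 25.1%. In 14 of the 30 the called fall reached 2-fold (on log2(FPKM + 1)), as it did in 2.34% of all tested genes. In 27 genes both MGH-CP1 values lay under both vehicle values, an order seen in 39.4% of tested genes, and the opposite order (34.7% of tested genes) was seen in none of them. The median log2 fold change was -0.97 over the 30 genes and -0.02 over all tested genes. Levels here are FPKM (fragments per kilobase of gene, scaled to the size of the library). Differences are log2 fold changes of MGH-CP1 over vehicle ± SE on log2(FPKM + 1). This scale understates changes, most of all in genes near or below 1 FPKM, but also in more abundant ones. BRCA1, for example, had -1.47 on this scale and -1.77 with voom, so the count of 2-fold falls depends on the scale. All 30 passed the filter of a mean of at least 1 FPKM. In BLM, FANCB and RAD54B the MGH-CP1 mean was under 1 FPKM, so their vehicle values carried them past it. In bulk RNA, fewer replicating cells and less RNA per cell cannot be told apart.

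**Figure D1:**
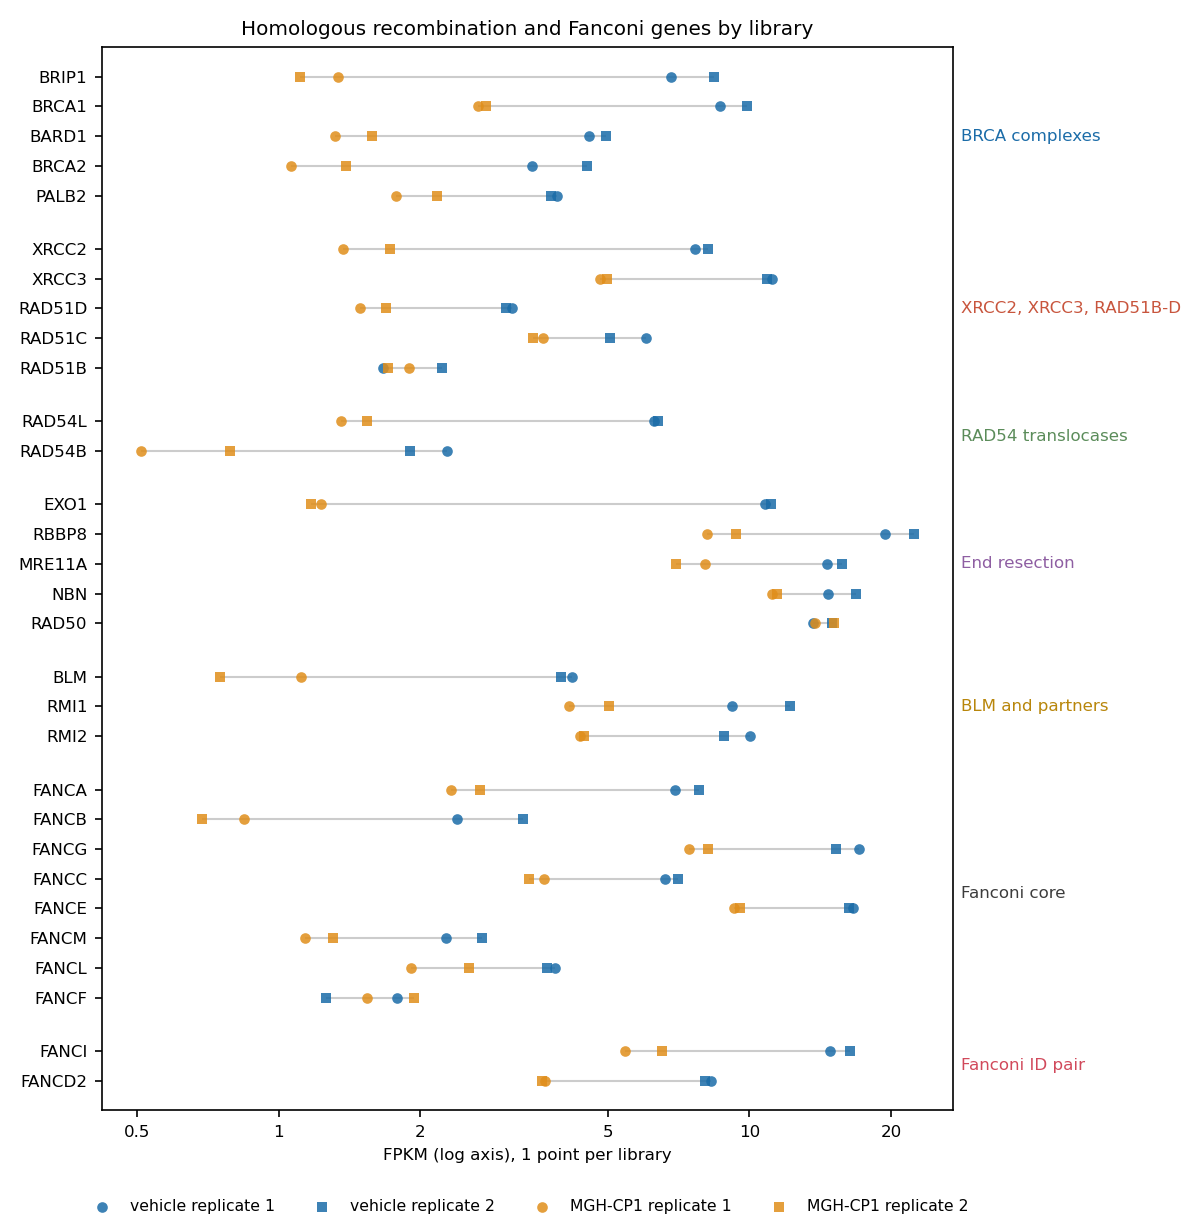
FPKM on a log axis for each of the 30 genes in each of the 4 libraries (blue, vehicle; orange, MGH-CP1; circles, replicate 1; squares, replicate 2), grouped by role. The orange points lie to the left of the blue points in 27 genes, and the colours overlap in RAD51B, RAD50 and FANCF.

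Since most of these genes fell together, their promoters were searched for short sequences known to be bound by E2F, NF-Y (CCAAT), TEAD and cell cycle (CHR) factors. RefSeq windows on GRCh38.p14, from 250 bases before to 50 bases after each start, were found for 26 of the 30 genes (35 windows, as some genes have more than 1 start). RAD54B, NBN, RMI2 and FANCI had no window in the table. The E2F letters TTTCCCGC, TTTCGCGC, TTTGCCGC or TTTGGCGC on either strand stood in 6 of the 35 windows (17.1%) and in 3.31% of all 35116 windows, or in 5.07% of the 13296 windows of tested genes. The 6 genes were XRCC2, EXO1, RMI1, FANCA, FANCC and FANCD2, all of which fell, as did 23 of the 26 genes with a window, most of them without these letters. CCAAT was in 34.3% of these windows, 34.6% of all windows and 34.7% of those of tested genes. The mitotic CHR letters TTTGAA or TTCGAA were in 5.71%, against 16.4% of all windows and 11.7% of those of tested genes. The TEAD letters GGAATG were in 20.0%, against 14.0% and 11.4%. By gene they stood in 5 of 26, which were 4 of the 23 that fell and 1 of the 3 not called (RAD51B). Windows of RAD51B overlap each other, as do those of RAD51C, so the same site is counted more than once in the share of windows. Both strands were searched for each motif, and no motif contains another. A match describes the sequence only, and no binding was measured here.

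The windows of the following genes are shown because they hold the E2F letters, in capitals, beside the gene with the largest fall (EXO1), a strongly reduced strand-exchange gene (XRCC2), a core gene with 2 matches (FANCC) and a substrate of the core complex (FANCD2). RAD50 is shown as a gene whose difference did not pass the test. Sequences run 5′ to 3′ on the gene's strand, at chr1:241847954-241848253, plus strand for EXO1, chr7:152676092-152676391, minus strand for XRCC2, chr9:95317660-95317959, minus strand for FANCC, chr3:10026187-10026486, plus strand for FANCD2 and chr5:132556727-132557026, plus strand for RAD50.
EXO1: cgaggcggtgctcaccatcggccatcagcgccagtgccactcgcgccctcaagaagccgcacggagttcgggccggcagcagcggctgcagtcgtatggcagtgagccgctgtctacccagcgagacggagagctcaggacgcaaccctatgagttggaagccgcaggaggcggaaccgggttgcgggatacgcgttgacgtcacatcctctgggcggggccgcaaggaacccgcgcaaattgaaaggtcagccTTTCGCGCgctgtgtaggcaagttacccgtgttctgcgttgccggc
XRCC2: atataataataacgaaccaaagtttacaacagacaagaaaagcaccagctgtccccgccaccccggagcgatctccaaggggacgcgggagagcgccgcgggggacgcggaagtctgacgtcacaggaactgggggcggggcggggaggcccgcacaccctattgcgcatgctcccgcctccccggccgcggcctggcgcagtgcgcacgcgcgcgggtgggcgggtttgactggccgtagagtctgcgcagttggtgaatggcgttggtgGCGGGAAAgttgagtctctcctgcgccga
FANCC: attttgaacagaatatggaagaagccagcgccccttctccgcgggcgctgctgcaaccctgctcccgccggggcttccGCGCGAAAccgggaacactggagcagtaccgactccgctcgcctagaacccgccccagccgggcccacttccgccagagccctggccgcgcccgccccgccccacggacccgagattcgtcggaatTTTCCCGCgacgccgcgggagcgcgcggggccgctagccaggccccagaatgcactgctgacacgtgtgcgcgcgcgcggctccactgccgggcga
FANCD2: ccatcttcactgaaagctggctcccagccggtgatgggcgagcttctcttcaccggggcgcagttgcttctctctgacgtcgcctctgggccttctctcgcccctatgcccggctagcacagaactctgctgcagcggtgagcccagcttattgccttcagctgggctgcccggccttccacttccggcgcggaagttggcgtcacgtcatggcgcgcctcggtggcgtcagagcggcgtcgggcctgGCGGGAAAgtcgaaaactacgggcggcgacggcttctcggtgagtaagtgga
RAD50: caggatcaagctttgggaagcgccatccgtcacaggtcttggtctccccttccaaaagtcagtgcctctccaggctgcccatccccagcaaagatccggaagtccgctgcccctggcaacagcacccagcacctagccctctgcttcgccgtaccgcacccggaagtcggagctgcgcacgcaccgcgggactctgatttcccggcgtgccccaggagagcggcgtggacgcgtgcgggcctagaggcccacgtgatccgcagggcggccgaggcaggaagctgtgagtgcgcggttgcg
In EXO1 the match begins 4 bases after the start and in XRCC2 21 bases after it. The FANCD2 match spans the start, beginning 2 bases before it, and those of FANCC begin 172 and 46 bases before it. No E2F letters of the 4 forms searched stand in the RAD50 window, or in the second windows of EXO1 and FANCC, which are not shown. The window of BRIP1, also not shown, has none either, though BRIP1 fell more than XRCC2, FANCC and FANCD2 (log2 fold change -1.95).

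End resection held both the largest fall of the 30 genes and a gene whose difference did not pass the test. EXO1 (ENSG00000174371, hg19 chromosome 1, 242011269 to 242058450, plus strand), the exonuclease that lengthens the resected strand, was at 10.8 and 11.1 FPKM in the vehicle libraries and 1.23 and 1.17 FPKM in the MGH-CP1 libraries. The groups are far apart and replicates nearly coincide: MGH-CP1 libraries held 11.0% of the vehicle mean, a 9.13-fold difference in mean FPKM (log2 fold change -2.44 ± 0.09; limma, adjusted p = 1.04e-05). Ordered from the lowest log2 fold change, EXO1 ranked 2 of 11790 tested genes. RBBP8, whose product CtIP starts resection with the MRE11 nuclease, was at 19.4 and 22.4 FPKM in the vehicle libraries and 8.13 and 9.38 FPKM in the MGH-CP1 libraries, again without overlap (log2 fold change -1.17 ± 0.10; limma, adjusted p = 0.000123). It was the most abundant of the 30 genes in vehicle per length of gene, and the fourth with MGH-CP1.

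The genes of the MRE11, RAD50 and NBN complex, which binds the broken end as a unit, did not move alike. MRE11A, the nuclease, had 14.6 and 15.7 FPKM with vehicle against 8.04 and 7.00 FPKM with MGH-CP1, and the groups did not overlap (log2 fold change -0.93 ± 0.09, 95% interval -1.13 to -0.72; limma, adjusted p = 0.000208). NBN, the subunit that recruits the ATM kinase, had 14.7 and 16.9 FPKM with vehicle against 11.2 and 11.5 FPKM with MGH-CP1, a smaller fall with no overlap (log2 fold change -0.44 ± 0.08, 95% interval -0.63 to -0.25). RAD50 (ENSG00000113522, hg19 chromosome 5, 131891711 to 131980313, plus strand), the tethering ATPase, had 13.6 and 15.0 FPKM with vehicle against 13.8 and 15.1 FPKM with MGH-CP1. Its groups overlapped almost fully, and with at least 1572 reads in every library the log2 difference was 0.01 ± 0.08, with a 95% interval of -0.17 to 0.20 (limma, adjusted p = 0.905). The interval leaves out the falls seen for MRE11A and NBN. Expressed as a ratio of FPKM within a library, MRE11A over RAD50 was 1.07 and 1.05 with vehicle and 0.584 and 0.462 with MGH-CP1. NBN over RAD50 was 1.08 and 1.12 with vehicle and 0.811 and 0.756 with MGH-CP1. The 3 genes thus stood at near equal FPKM in vehicle, at means of 15.2, 15.8 and 14.3, and were spread from 7.52 (MRE11A) to 14.5 (RAD50) with MGH-CP1.

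**Figure D2:**
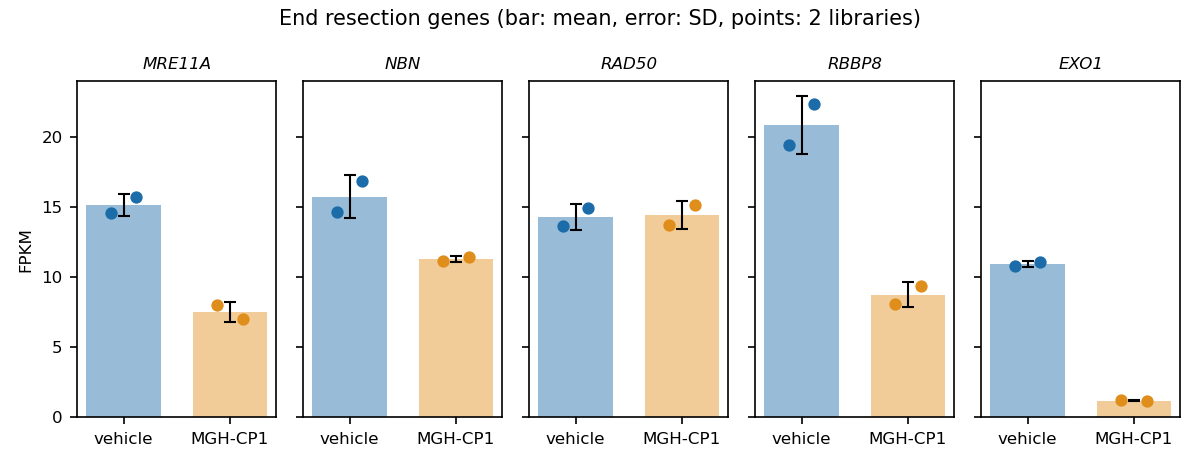
FPKM of the 5 end resection genes in vehicle (blue) and MGH-CP1 (orange), on 1 linear axis from 0; bars are means, error bars SD and points the 2 libraries of each group. RAD50 lies between 13.6 and 15.1 FPKM over both groups, whereas EXO1 falls from 11.0 to 1.20 FPKM.

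All 5 genes of the BRCA1, PALB2 and BRCA2 complexes fell. BRCA1 (ENSG00000012048, hg19 chromosome 17, 41196312 to 41322290, minus strand), the ubiquitin ligase that promotes resection and recruits PALB2, was at 8.65 and 9.89 FPKM in the vehicle libraries and 2.65 and 2.76 FPKM in the MGH-CP1 libraries. Replicates were close and the groups far apart (log2 fold change -1.47 ± 0.10; limma, adjusted p = 5.33e-05). Its obligate partner BARD1 had 4.55 and 4.97 FPKM with vehicle against 1.31 and 1.58 FPKM with MGH-CP1, also without overlap (log2 fold change -1.24 ± 0.11). BARD1 over BRCA1 was 0.527 and 0.503 with vehicle and 0.496 and 0.571 with MGH-CP1, so the ratio of the pair overlapped between groups while both genes fell about 3-fold in mean FPKM (3.43-fold and 3.30-fold).

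BRCA2 (ENSG00000139618, hg19 chromosome 13, 32889611 to 32973805, plus strand), which acts on resected DNA, was at 3.46 and 4.52 FPKM in the vehicle libraries and 1.06 and 1.39 FPKM in the MGH-CP1 libraries. Vehicle replicates were further apart than in BRCA1, but the groups did not overlap (log2 fold change -1.16 ± 0.14; limma, adjusted p = 0.000741). PALB2, the bridge between BRCA1 and BRCA2, had 3.91 and 3.79 FPKM with vehicle against 1.78 and 2.17 FPKM with MGH-CP1, the smallest fall of the 5 (log2 fold change -0.71 ± 0.11; limma, adjusted p = 0.00206). BRIP1 (ENSG00000136492, hg19 chromosome 17, 59758627 to 59940882, minus strand), the helicase bound by BRCA1 and also known as FANCJ, had 6.81 and 8.40 FPKM with vehicle against 1.34 and 1.11 FPKM with MGH-CP1. It kept 16.1% of its vehicle mean, the second largest fall among the 30 genes (log2 fold change -1.95 ± 0.12; limma, adjusted p = 4.93e-05). Summed over the 5 genes, FPKM was 27.4 and 31.6 with vehicle and 8.14 and 9.0 with MGH-CP1, or 29.1% of the vehicle mean.

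The group of XRCC2, XRCC3, RAD51B, RAD51C and RAD51D, which assist strand exchange, covered the widest span outside resection. XRCC2 (ENSG00000196584, hg19 chromosome 7, 152341864 to 152373250, minus strand) had 7.68 and 8.15 FPKM with vehicle against 1.37 and 1.72 FPKM with MGH-CP1, a 5.12-fold difference in mean FPKM (log2 fold change -1.81 ± 0.11; limma, adjusted p = 4.19e-05). RAD51D, its direct partner, had 3.13 and 3.05 FPKM with vehicle against 1.49 and 1.69 FPKM with MGH-CP1 and a smaller log2 fold change of -0.66 ± 0.11 (limma, adjusted p = 0.00269). The 95% intervals of the partners, -2.06 to -1.56 and -0.92 to -0.40, do not meet, and XRCC2 over RAD51D in FPKM was 2.45 and 2.67 with vehicle and 0.919 and 1.02 with MGH-CP1.

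The pair formed by XRCC3 and RAD51C, which acts with BRCA2, also fell unequally. XRCC3 had 11.2 and 10.9 FPKM with vehicle against 4.81 and 4.98 FPKM with MGH-CP1 (log2 fold change -1.03 ± 0.08; limma, adjusted p = 8.3e-05). For RAD51C the values were 6.04 and 5.05 FPKM in the vehicle libraries and 3.65 and 3.46 FPKM in the MGH-CP1 libraries, with groups apart but a modest log2 fold change of -0.52 ± 0.11 (limma, adjusted p = 0.00638). That call was lost with no filter on low values, where 24640 genes were tested (limma, adjusted p = 0.0527, the highest over its alternatives, from a lowest of 0.00164). RAD51B, another gene of this group, had 1.67 and 2.23 FPKM in the vehicle libraries and 1.89 and 1.70 FPKM in the MGH-CP1 libraries. Its groups overlapped, and the log2 difference of -0.07 ± 0.13 did not pass (95% interval -0.39 to 0.25; limma, adjusted p = 0.708). With 75 to 97 reads per library, a fall as large as that of RAD51C lies outside this interval, but smaller changes were not detectable at this depth.

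Both RAD54 translocases, which open the donor duplex, were lower. RAD54L (ENSG00000085999, hg19 chromosome 1, 46713360 to 46744145, plus strand) had 6.27 and 6.38 FPKM with vehicle against 1.36 and 1.54 FPKM with MGH-CP1, a 4.37-fold difference in mean FPKM (log2 fold change -1.58 ± 0.10; limma, adjusted p = 4.81e-05). RAD54B, the least abundant of the 30 genes with MGH-CP1, had 2.27 and 1.90 FPKM with vehicle against 0.509 and 0.788 FPKM with MGH-CP1 on as few as 27 reads. Replicates differed more here, and the groups still did not overlap (log2 fold change -0.91 ± 0.15; limma, adjusted p = 0.00229).

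BLM, the helicase mutated in Bloom syndrome, had 4.20 and 3.99 FPKM with vehicle against 1.12 and 0.751 FPKM with MGH-CP1. Treated libraries kept 22.8% of the vehicle mean (log2 fold change -1.40 ± 0.13; limma, adjusted p = 0.000204). Its scaffold partner RMI1 had 9.17 and 12.2 FPKM with vehicle against 4.13 and 5.02 FPKM with MGH-CP1, and the small partner RMI2 had 10.0 and 8.81 FPKM with vehicle against 4.37 and 4.46 FPKM with MGH-CP1. Neither overlapped between groups, with log2 fold changes of -1.06 and -0.94 (limma, adjusted p = 0.000956 and 0.000225). TOP3A, the topoisomerase that completes this complex, fell too, to 50.8% of its vehicle mean (log2 fold change -0.92 ± 0.06; named after its values were seen).

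Of the 8 Fanconi core genes among the 30, 7 fell, by less than the BRCA genes at the median (-0.77 against -1.24). The ubiquitin ligase module of the core is formed by FANCB, FANCL and a further subunit. FANCL, the catalytic subunit, had 3.85 and 3.72 FPKM with vehicle against 1.91 and 2.53 FPKM with MGH-CP1 and the smallest fall of the called core genes (log2 fold change -0.58 ± 0.12; limma, adjusted p = 0.00789). Its call was lost with no filter and without MGH-CP1 replicate 1 (limma, adjusted p = 0.069 and 0.0501, over a range from 0.00734). FANCB, encoded on the X chromosome, had 2.39 and 3.31 FPKM with vehicle against 0.846 and 0.686 FPKM with MGH-CP1, with well separated groups (log2 fold change -1.12 ± 0.15; limma, adjusted p = 0.00108).

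FANCA and FANCG, which form a further module, both fell. FANCA had 6.94 and 7.82 FPKM with vehicle against 2.32 and 2.68 FPKM with MGH-CP1 (log2 fold change -1.26 ± 0.10), and the groups did not overlap. FANCG, its adaptor, had 17.1 and 15.3 FPKM with vehicle against 7.43 and 8.18 FPKM with MGH-CP1 (log2 fold change -0.97 ± 0.08). FANCC and FANCE, of the module that positions the FANCD2 substrate, fell to 51.7% and 57.3% of the vehicle mean. The values of FANCC were 6.63 and 7.07 FPKM in the vehicle libraries and 3.67 and 3.41 FPKM in the MGH-CP1 libraries (log2 fold change -0.79 ± 0.09). For FANCE they were 16.6 and 16.3 FPKM in the vehicle libraries and 9.26 and 9.56 FPKM in the MGH-CP1 libraries (log2 fold change -0.74 ± 0.07), with the smallest SE of the 30 genes. FANCM, the translocase that anchors the core on DNA, had 2.27 and 2.71 FPKM with vehicle against 1.14 and 1.30 FPKM with MGH-CP1 (log2 fold change -0.65 ± 0.12; limma, adjusted p = 0.00513).

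FANCF was the exception among these 8 core genes, and is the adaptor that holds the modules together. It had 1.78 and 1.26 FPKM in the vehicle libraries and 1.54 and 1.94 FPKM in the MGH-CP1 libraries, with overlapping groups and a log2 difference of 0.12 ± 0.15 (95% interval -0.23 to 0.48; limma, adjusted p = 0.535). FANCF was the least abundant of the 30 genes in vehicle and had rank 19 of 30 with MGH-CP1. FANCE lies in the same module, and FANCF over FANCE in FPKM was 0.107 and 0.0774 with vehicle and 0.166 and 0.203 with MGH-CP1.

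The pair that the core complex ubiquitinates fell together. FANCD2 (ENSG00000144554, hg19 chromosome 3, 10068098 to 10143614, plus strand) was at 8.29 and 8.07 FPKM in the vehicle libraries and 3.68 and 3.63 FPKM in the MGH-CP1 libraries, with close replicates and no overlap (log2 fold change -0.98 ± 0.08; limma, adjusted p = 0.000132). FANCI was at 14.8 and 16.3 FPKM in the vehicle libraries and 5.44 and 6.51 FPKM in the MGH-CP1 libraries (log2 fold change -1.25 ± 0.10; limma, adjusted p = 0.000101). The ratio of FANCI over FANCD2 overlapped only narrowly between groups, at 1.79 and 2.02 with vehicle and 1.48 and 1.8 with MGH-CP1.

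**Figure D3:**
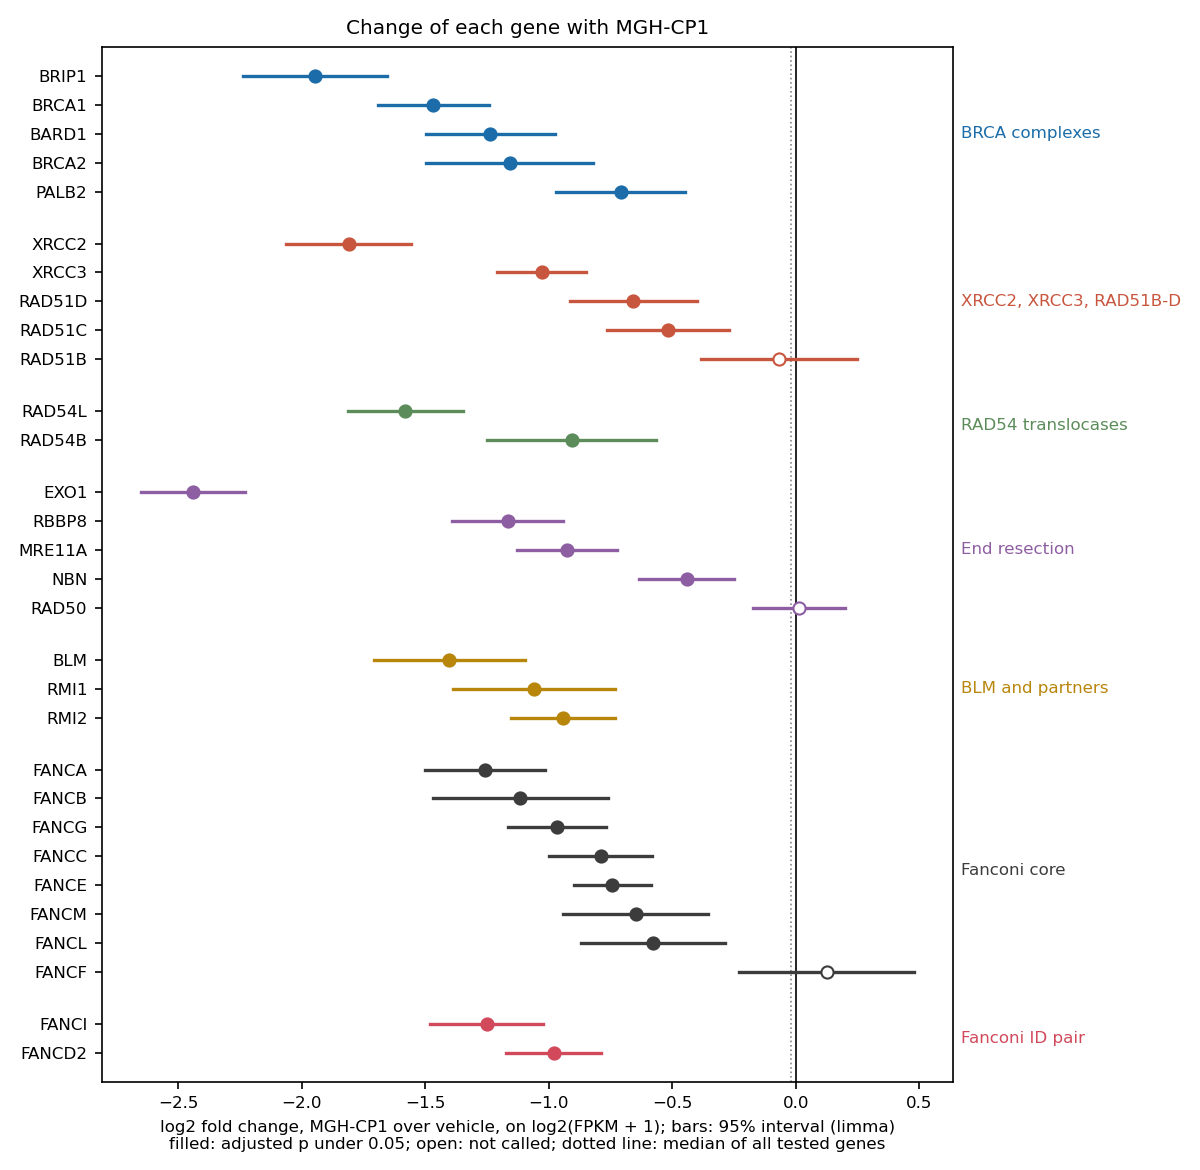
Log2 fold change of each gene with its 95% interval (limma), coloured by role; filled points have an adjusted p under 0.05 and open points do not, and the dotted line is the median of all tested genes. The points run from EXO1 at -2.44 to FANCF at 0.12, and only the intervals of RAD51B, RAD50 and FANCF reach 0.

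Across the 30 genes the levels came closer to the floor of detection and changed order. Vehicle means ran from 1.52 (FANCF) to 20.9 FPKM (RBBP8) with a median of 7.49, and MGH-CP1 means from 0.648 (RAD54B) to 14.5 FPKM (RAD50) with a median of 2.36. At least 10 FPKM was reached by 10 genes in vehicle and by 2, RAD50 and NBN, with MGH-CP1. EXO1 went from rank 9 to rank 27 of 30 by mean FPKM, whereas RAD50 went from rank 7 to rank 1. Neighbours in the vehicle order often lay within their spread: FANCE, FANCG, NBN, FANCI, MRE11A and RAD50 held means between 14.3 and 16.4 FPKM with SDs of up to 1.55. Reads per gene and library ran from 27 to 1695, and 21 of the 30 genes had at least 100 reads in every library. Genes with higher vehicle levels had slightly lower log2 fold changes (Spearman rho -0.25, n = 30 genes of the same 4 libraries), a weak relation given as a description only. The added 1 FPKM shrinks the changes of low genes, and vehicle values enter both measures. Both favour a negative rho by construction.

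For the low genes the reads recovered from FPKM give larger changes than log2(FPKM + 1), since no 1 FPKM is added. With voom the log2 fold change was -1.71 for RAD54B, -1.86 for FANCB, -2.15 for BLM and -1.02 for FANCM, each over 1.5 times the value above. EXO1 stood at -3.18 and BRIP1 at -2.62 on that scale. Whether counting used strand is not given in the sources used here, so genes that overlap a neighbour on the opposite strand are uncertain. RAD54L overlaps LRRC41 over 17278 bases on hg19, and LRRC41 averaged 26.6 FPKM against 3.89 for RAD54L. BRCA1 overlaps NBR2 over 28062 bases (2.86 FPKM against 5.99 for BRCA1). Shorter overlaps with a neighbour of like or higher level are those of FANCI with POLG (959 bases, 24.3 FPKM), NBN with DECR1 (1824 bases, 12.8 FPKM), XRCC3 with KLC1 (3943 bases, 10.3 FPKM), RMI2 with SOCS1 (1775 bases, 7.55 FPKM) and FANCL with VRK2 (678 bases, 6.07 FPKM).

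Other recombination genes moved mostly in the same direction. Their list had 19 of 25 tested members lower and 1 higher, with a median log2 fold change of -0.69. These were 76% and 4%, beside 25.1% and 20.0% of all tested genes. DNA2, a nuclease that resects in parallel with EXO1, had 5.26 and 5.31 FPKM with vehicle against 0.943 and 1.05 FPKM with MGH-CP1 (log2 fold change -1.65 ± 0.10), with an MGH-CP1 mean just under 1 FPKM, and RAD51AP1, a cofactor of strand exchange, had 7.84 and 8.90 FPKM with vehicle against 2.61 and 2.66 FPKM with MGH-CP1 (log2 fold change -1.36 ± 0.09). RECQL5, a helicase that restrains recombination, was the member that rose, from 4.32 and 4.45 to 5.69 and 5.69 FPKM (log2 fold change 0.31 ± 0.08; limma, adjusted p = 0.0197). This rise was not called without either MGH-CP1 library or with no filter. RAD52, which anneals single strands, did not pass, with 1.70 and 1.75 FPKM with vehicle against 1.90 and 1.94 FPKM with MGH-CP1 (named after its values were seen). EME1 was among the 19 called lower. Its means were 1.97 FPKM with vehicle and 0.607 FPKM with MGH-CP1, so its vehicle values carried it past the filter. Of the 7 members below the filter, SLX1A and SLX1B, near-identical copies of each other, are listed at 0 in every library, and their levels are uncertain. EME2, also below it, was higher with MGH-CP1 without overlap (means of 0.687 and 1.04 FPKM). MCM9 (1.09 and 0.838 FPKM) and DMC1 (0.0856 and 0.0122 FPKM) were lower without overlap. None of these was tested, so the filter shaped the counts of this list in part.

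Among other Fanconi and cross-link repair genes 8 of 18 fell, 1 rose and 9 were not called (median -0.24). The shares were 44.4% lower and 5.56% higher, beside 25.1% and 20.0% of all tested genes. UBE2T, the enzyme that supplies ubiquitin to FANCL, had 23.7 and 26.3 FPKM with vehicle against 9.66 and 9.40 FPKM with MGH-CP1 (log2 fold change -1.30 ± 0.07). USP1, which removes ubiquitin from FANCD2, had 52.6 and 57.4 FPKM with vehicle against 22.0 and 24.3 FPKM with MGH-CP1 (log2 fold change -1.21 ± 0.07), and RAD18, a ligase of damage tolerance, had 9.77 and 10.9 FPKM with vehicle against 4.29 and 4.62 FPKM with MGH-CP1 (log2 fold change -1.06 ± 0.09). All 3 had groups that do not overlap (limma, adjusted p = 3.53e-05, 4.22e-05 and 0.000136). WDR48, the activating partner of USP1, rose from 11.4 and 11.4 to 15.7 and 15.9 FPKM (log2 fold change 0.44 ± 0.06; limma, adjusted p = 0.0015). The enzyme and its partner moved in opposite directions.

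In the list of damage signalling genes 15 of 27 fell and none rose (limma and voom), with a median of -0.34. At an unadjusted p under 0.05, 1 rose (limma). The share lower was 55.6%, beside 25.1% of all tested genes lower and 20.0% higher. CLSPN, the adaptor that lets ATR activate CHEK1, had 15.2 and 15.0 FPKM with vehicle against 2.25 and 3.29 FPKM with MGH-CP1 (log2 fold change -2.11 ± 0.13). TIPIN, which stabilises stalled forks, had 6.92 and 7.75 FPKM with vehicle against 2.49 and 1.86 FPKM with MGH-CP1 (log2 fold change -1.40 ± 0.12). H2AFX, the histone phosphorylated around breaks, had 124 and 119 FPKM with vehicle against 49.1 and 46.2 FPKM with MGH-CP1 (log2 fold change -1.33 ± 0.06). The apical kinase ATM did not pass, with 5.67 and 6.70 FPKM with vehicle against 5.29 and 5.83 FPKM with MGH-CP1, and its relative ATR fell by 0.47 on the log2 scale (both named after their values were seen).

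End joining, the route that seals breaks without a template, showed 5 of 15 tested genes lower and 1 higher (33.3% and 6.67%, beside 25.1% and 20.0% of all tested genes). PRKDC, the kinase of this route, had 41.6 and 49.4 FPKM with vehicle against 17.3 and 19.8 FPKM with MGH-CP1 (log2 fold change -1.25 ± 0.10). POLQ, the polymerase of the alternative route, had 1.73 and 2.32 FPKM with vehicle against 0.586 and 0.585 FPKM with MGH-CP1 (log2 fold change -0.92 ± 0.14), and XRCC5, which encodes Ku80, fell by 0.48 on the log2 scale. The MGH-CP1 mean of POLQ was 0.585 FPKM, so its vehicle values carried it past the filter. POLL, a gap-filling polymerase, rose from 5.20 and 4.76 to 7.22 and 7.89 FPKM (log2 fold change 0.52 ± 0.09; limma, adjusted p = 0.00305). Summed FPKM with MGH-CP1 was 46.4% of vehicle for the 30 recombination and Fanconi genes and 74.6% for the 16 end joining genes. Most of the end joining sum came from XRCC5, XRCC6 (which encodes Ku70; named after its values were seen) and PRKDC, with vehicle means of 107.7, 128 and 45.5 FPKM and MGH-CP1 means of 77.2, 97.3 and 18.6 FPKM, so the sum describes mainly these genes. The ratio of these sums was 0.645 and 0.687 with vehicle and 0.403 and 0.426 with MGH-CP1, with no overlap.

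Transcripts of the cell cycle fell in the same libraries. All 33 S phase genes were lower, with a median of -1.65, and all 22 genes of G2 and mitosis, with a median of -0.94 (limma and voom; none rose, also at an unadjusted p under 0.05). Summed FPKM of the S phase list was 1169 and 1127 with vehicle and 342 and 349 with MGH-CP1 (30.1% of vehicle), and that of the mitosis list 1106 and 1146 against 563 and 566 (50.1%). Relative to the S phase sum, the sum of the 30 genes was 0.208 and 0.228 with vehicle and 0.328 and 0.343 with MGH-CP1. Relative to the mitosis sum it was 0.220 and 0.224 with vehicle and 0.200 and 0.211 with MGH-CP1. Against the S phase list the ratio was higher in both MGH-CP1 libraries, and against the mitosis list it was slightly lower in both. The part of cell cycle distribution in the fall of the repair genes was not tested. Of 14 housekeeping genes 5 were lower and 3 higher (35.7% and 21.4%, beside 25.1% and 20.0% of all tested genes), with a median of -0.04. These counts shift with the scaling and the libraries used.

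**Figure D4:**
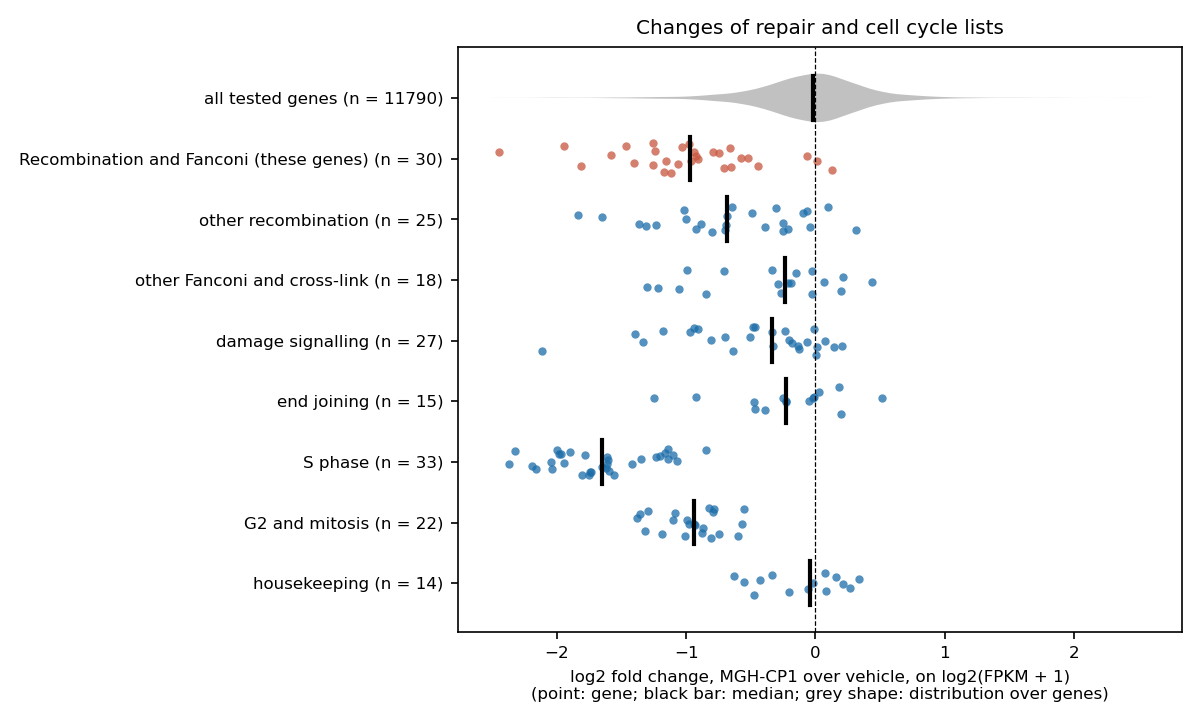
Log2 fold changes of MGH-CP1 over vehicle for all tested genes (grey shape), the 30 recombination and Fanconi genes (red) and the comparison lists (blue); each point is a gene and each black bar a median. The median is -0.97 for the 30 genes, between -1.65 for S phase and -0.22 for end joining genes. The added 1 FPKM shrinks the changes of low genes more, so medians of lists at different levels are not fully comparable. With voom the median of the 30 genes was -1.17.

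The depth was 16790645 to 18485701 reads per library, so that each read on 1 kb of gene added 0.0541 to 0.0596 FPKM. Markers fitted the labelled line in part: VIM and CD44, typical of its mesenchymal state, were at 147 to 199 and 271 to 343 FPKM, PGR is listed at 0 in all libraries and ESR1 in 3 of them (0.00912 FPKM in the other), while KRT8 and ERBB2 of the luminal list averaged 291 and 25.4 FPKM. Markers of other cell types were low, with summed FPKM of 5.0 to 7.56 for 6 fibroblast genes, 3.58 to 3.96 for 6 immune genes, most of it CD14, and 0.469 to 0.938 for 4 endothelial genes. PTPRC and CD3E stayed under 0.1 FPKM. No sum moved between groups without overlap except in the list of the line's own markers, from 1387 and 1390 to 1089 and 1111 FPKM, and in the luminal list, from 328 and 325 to 336 and 329.7 FPKM. These sums hide opposite members: of the line's 6 markers 4 were lower and 2, VIM and CD44, higher, and of the 4 tested luminal genes GATA3 was lower (log2 fold change -0.57 ± 0.11) while the other 3 did not pass. The part of these markers in the results was not tested.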

How the data were processed

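RNA was measured by poly(A) sequencing in 4 libraries of MDA-MB-231 cells, 2 with vehicle and 2 with MGH-CP1, grouped by sample title. The authors deposited 1 table of FPKM values for 48162 genes. Per the submitters' processing notes, the tools were CASAVA 1.8 and STAR and the build hg19. The counter, the strand setting and the annotation are not named in the sources used here. Multiplied by gene length, all values above 0 were whole multiples of 1 step per library (100% within 0.001 of a whole number, or a share of 1e-06 for large counts), which gave the reads. On these reads voom called 3288 genes lower and 2845 higher of 14112 tested. The depth, 16790645 to 18485701 reads, bounds the precision, as counting error and replicate spread both enter.

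Each value was taken as log2(FPKM + 1). The 11790 genes averaging 1 FPKM or more entered limma 3.58.1 (R 4.3.3), fitted with group as the only term and a mean-variance trend. P-values were two-sided and adjusted by Benjamini-Hochberg over all genes tested, and called under 0.05. The fit was also run on simulated data, with an assumed spread rather than the one measured here. Only changes of 2-fold or more were simulated, so that run does not cover the smaller calls. Replicates differed beyond sampling: over genes with 100 or more reads per pair, the chi-square had a median of 1.78 for vehicle and of 1.05 for MGH-CP1, against 0.455 from sampling, so no pair was treated as a repeat deposit of 1 library. This does not show separate cultures. The 13 alternatives covered pseudocount, filter, scaling, voom on the recovered reads, variance trend, a replicate block and leaving out each library. Lists are described by counts and medians, with no set test. All 30 members are named, and of each other repair list the 3 largest called changes and up to 3 called against its majority; others say that they were named after their values were seen. One gene that this rule names is not reported here. Members and lists were chosen with earlier results of these data known. Promoter windows came from RefSeq (GRCh38.p14) and were used for sequence only, matched by symbol. Plots were drawn with matplotlib 3.10.9 in Python 3.11.15 (pandas 2.3.3).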

Additional observations from a re-analysis of the deposited data

How the results depend on the processing

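Under the 13 alternatives, 367 of 374 log2 fold changes of single genes kept their direction and their side of the threshold. The calls of RAD51C (log2 fold change -0.52) and FANCL (-0.58) were lost with no filter, and that of FANCL without MGH-CP1 replicate 1 (-0.44). With no filter 24640 genes were tested in place of 11790, and the adjusted p of EXO1 also rose, from 1.04e-05 to 0.00425 (limma). The cause of these losses was not tested. Small differences that passed in no setting changed sign as libraries were left out, over ranges of -0.051 to 0.077 for RAD50, -0.21 to 0.068 for RAD51B and -0.026 to 0.27 for FANCF. The number of the 30 genes called lower was 25 with no filter, 26 without MGH-CP1 replicate 1, 13 of the 14 left among genes of at least 5 FPKM (the fewer genes tested by construction), and 27 otherwise. The filter of 5 FPKM used the mean of all 4 libraries, so vehicle values carried some of the 14 past it. EXO1 and BRCA1, for example, had MGH-CP1 means of 1.20 and 2.70 FPKM. The median log2 fold change of the 30 genes, -0.97, became -1.15 with a pseudocount of 0.1 and -1.17 with voom, which add less to low values.

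Over all tested genes 2355 were higher, against 1568 with no filter and 1450 to 2554 with 1 library left out (1488 without the first MGH-CP1 library and 1450 without the second; the cause was not tested). Scaling moved the median of all genes by 0.02 (median of ratios) and 0.04 (quantile). Counts of higher genes in small lists also moved: other recombination had 1, against 0 with no filter, 2 with voom and 0 to 1 with a library left out; damage signalling had 1 with quantile normalization; other Fanconi and cross-link genes had 1 to 2 with a library left out. Housekeeping genes had 3 higher and 5 lower, against 0 and 3 with no filter, 1 higher with quantile normalization, and 1 to 3 higher and 3 to 6 lower with a library left out.

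The titles number the replicates 1 and 2 in both groups, with no statement that a number is shared. Deviations of same-numbered libraries correlated at 0.05 across genes. With the replicate block 27 of the 30 genes were lower and 0 higher, and 3036 of all genes were lower and 2453 higher; no call among the 30 genes changed. Groups of 2 give few residual degrees of freedom, and genes with under 100 reads in a library (9 of the 30) are the least precise.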
